A study of Homo sapiens with 12 samples.

Results

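The genes described here are 5 metallothioneins (MT1E, MT1F, MT1G, MT1X and MT2A), the zinc-sensing transcription factor MTF1, the zinc exporter SLC30A1 and the zinc importers SLC39A10 and SLC39A14. They were chosen by their symbols, with earlier results of these data known. All 9 were found among the 16705 genes of the expression table and passed the filter on low expression. RNA was sequenced from human liver spheroid co-cultures in 12 libraries, 3 in each of 4 groups. The groups were spheroids left untreated for 24 h, spheroids exposed to 1% TPN for 24 h, spheroids left untreated for 144 h and spheroids exposed to 1% TPN for 144 h. All spheroids combined C3A cells, which derive from the hepatoma line HepG2 and resemble hepatocytes, with a smaller number of LX-2 cells, an immortalized line of hepatic stellate cells, and many spheroids were pooled for each library. TPN, total parenteral nutrition, was the mixture given in the clinic, which holds glucose, amino acids, lipids, electrolytes, vitamins and a trace element concentrate, so that the effect of a single component such as the trace elements cannot be told apart from that of the others.

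Metallothioneins are small, cysteine-rich proteins that bind zinc and copper and thereby buffer the free metal in the cell, and the liver is one of their main sites of expression. When zinc in the cell rises, MTF1 binds to metal response elements in the promoters of the metallothionein genes and of SLC30A1 and raises their transcription. Transporters of the ZnT family (SLC30) move zinc out of the cytosol, those of the ZIP family (SLC39) move it in, and glucocorticoids and inflammatory cytokines also act on several of these genes. Whether spheroids exposed to TPN carried more or less RNA of these genes than untreated spheroids, and whether this differed between 24 h and 144 h, is what the comparisons below address.

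The 5 metallothionein genes lie close to each other on chromosome 16 in the table (GRCh38.p13). MT2A (gene number 4502) is at chr16:56608584-56614681, MT1E (4493) at chr16:56625781-56633986, MT1F (4494) at chr16:56657694-56661006, MT1G (4495) at chr16:56666730-56668065 and MT1X (4501) at chr16:56682470-56687807. MTF1 (4520) is at chr1:37809570-37859614, SLC30A1 (7779) at chr1:211558925-211613071 and SLC39A10 (57181) at chr2:195575944-195737701. Several of these spans are longer than those in RefSeq (GRCh38.p14), which places SLC30A1 at chr1:211571568-211579161 and MT2A at chr16:56608584-56609497. The spans given here are therefore not the exact extent of each gene. The span given for MT1E also covers MT1M, whose mean of 0.202 FPKM was below the filter, and the span of SLC39A10 overlaps those of DNAH7 and NDUFA10 in the same table.

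Promoter windows of 300 bases, from 250 bases before to 50 bases after the start site, were taken from RefSeq (GRCh38.p14). RefSeq gives coordinates for all 9 genes, but the set of windows used here covered 5 of them. The windows are shown for the metallothioneins MT2A and MT1X and for the exporter SLC30A1, which are among the genes described above as raised by MTF1. No window was at hand for MT1E, MT1F, MT1G and SLC39A14, so matches were not counted for these genes. MT2A lies on the plus strand (chr16:56608334-56608633), MT1X on the plus strand (chr16:56682220-56682519) and SLC30A1 on the minus strand (chr1:211579112-211579411). Each sequence is written 5′ to 3′ in the direction of transcription, and capitals mark every match to the core of the metal response element, TGCACNC or TGCGCNC, on either strand.
MT2A: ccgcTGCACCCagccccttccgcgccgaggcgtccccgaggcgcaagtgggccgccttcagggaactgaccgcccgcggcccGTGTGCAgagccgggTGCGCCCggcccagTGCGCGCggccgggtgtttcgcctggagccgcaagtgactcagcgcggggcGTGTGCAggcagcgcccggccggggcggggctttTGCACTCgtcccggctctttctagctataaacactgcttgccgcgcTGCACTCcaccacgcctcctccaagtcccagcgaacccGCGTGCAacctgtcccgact
MT1X: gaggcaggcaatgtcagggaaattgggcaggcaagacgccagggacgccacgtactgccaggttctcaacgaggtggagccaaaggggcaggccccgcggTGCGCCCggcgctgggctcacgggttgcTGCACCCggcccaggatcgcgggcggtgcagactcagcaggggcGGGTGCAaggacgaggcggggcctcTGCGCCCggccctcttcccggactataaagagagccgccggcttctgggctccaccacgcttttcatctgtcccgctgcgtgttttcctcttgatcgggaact
SLC30A1: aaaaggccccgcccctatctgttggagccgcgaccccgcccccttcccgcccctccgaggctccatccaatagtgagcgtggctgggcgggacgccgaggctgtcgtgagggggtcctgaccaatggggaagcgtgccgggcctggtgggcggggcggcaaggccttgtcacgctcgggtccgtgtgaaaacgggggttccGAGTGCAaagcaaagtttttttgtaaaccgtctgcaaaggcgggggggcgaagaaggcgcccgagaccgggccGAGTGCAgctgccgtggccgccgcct
The window of MT2A held 8 such matches, that of MT1X held 4 and that of SLC30A1 held 2, and none of the matches in the MT2A window overlapped another. Of 35116 RefSeq promoter windows of the same length, 29.6% held at least 1 match, 8.6% at least 2, 0.601% at least 4 and 0.0199% at least 8. Counted from the start site, the matches of the MT2A window lay between positions -246 and 36, and 6 of the 8 lay between -168 and -2. SLC39A10 had windows for 2 start sites, with no match in one window and 1 match in the other, and the window of MTF1 held no match. The core of the antioxidant response element (TGACNNNGC, on either strand) was found once each in the windows of MT2A, MT1X and SLC30A1, and in 13.3% of all windows. A match describes the letters of the window and does not show that a factor binds there.

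Values were FPKM as calculated by the authors, that is, fragments corrected for the length of the transcript and for the total mapped. Levels, sums and shares of different genes thus depend on the length assumed, most of all for transcripts as short as those of the metallothioneins. Library totals were 561657 to 583722 FPKM. The spacing of the lowest nonzero values of short genes gave a depth of about 1.83e+07 to 1.92e+07 fragments per library. In this estimate 87.3% of 559 values lay within 0.15 fragments of a whole number. The depth was chosen to bring these same values close to whole numbers, so this share does not check it independently. At that depth a library held on average roughly 97 fragments (MT1F, spheroids exposed to TPN for 144 h) to 12000 fragments (SLC39A14) of a member. Differences were tested with limma on log2(FPKM + 0.1) in 11713 genes with a mean of at least 0.5 FPKM, and all log2 fold changes below are on that scale, which understates the change of genes with low expression. A gene was called higher or lower when its Benjamini-Hochberg adjusted p value over all genes tested was below 0.05, and it was counted as a differentially expressed gene (DEG) when its log2 fold change was also above 0.58 in size.

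MT2A was the most abundant member by FPKM, with a mean of 922 FPKM over the 12 libraries, rank 98 among the 16705 genes. MT1E followed with 336 FPKM (rank 218), MT1G with 257 FPKM (rank 286), MT1X with 160 FPKM (rank 505) and MT1F with 94.4 FPKM (rank 852). By estimated fragments, MT1E exceeded MT2A in all groups except spheroids exposed to TPN for 144 h. In untreated spheroids of 24 h it held about 4200 against 2500 fragments, from a longer reference transcript (746 against 401 bases). SLC39A14, which imports zinc, iron and manganese and is abundant in liver, had a mean of 145 FPKM (rank 559). The other members of the transport system were expressed at a far lower level, with means of 9.02 FPKM for SLC30A1, 7.85 FPKM for SLC39A10 and 2.36 FPKM for MTF1.

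**Figure D1:**
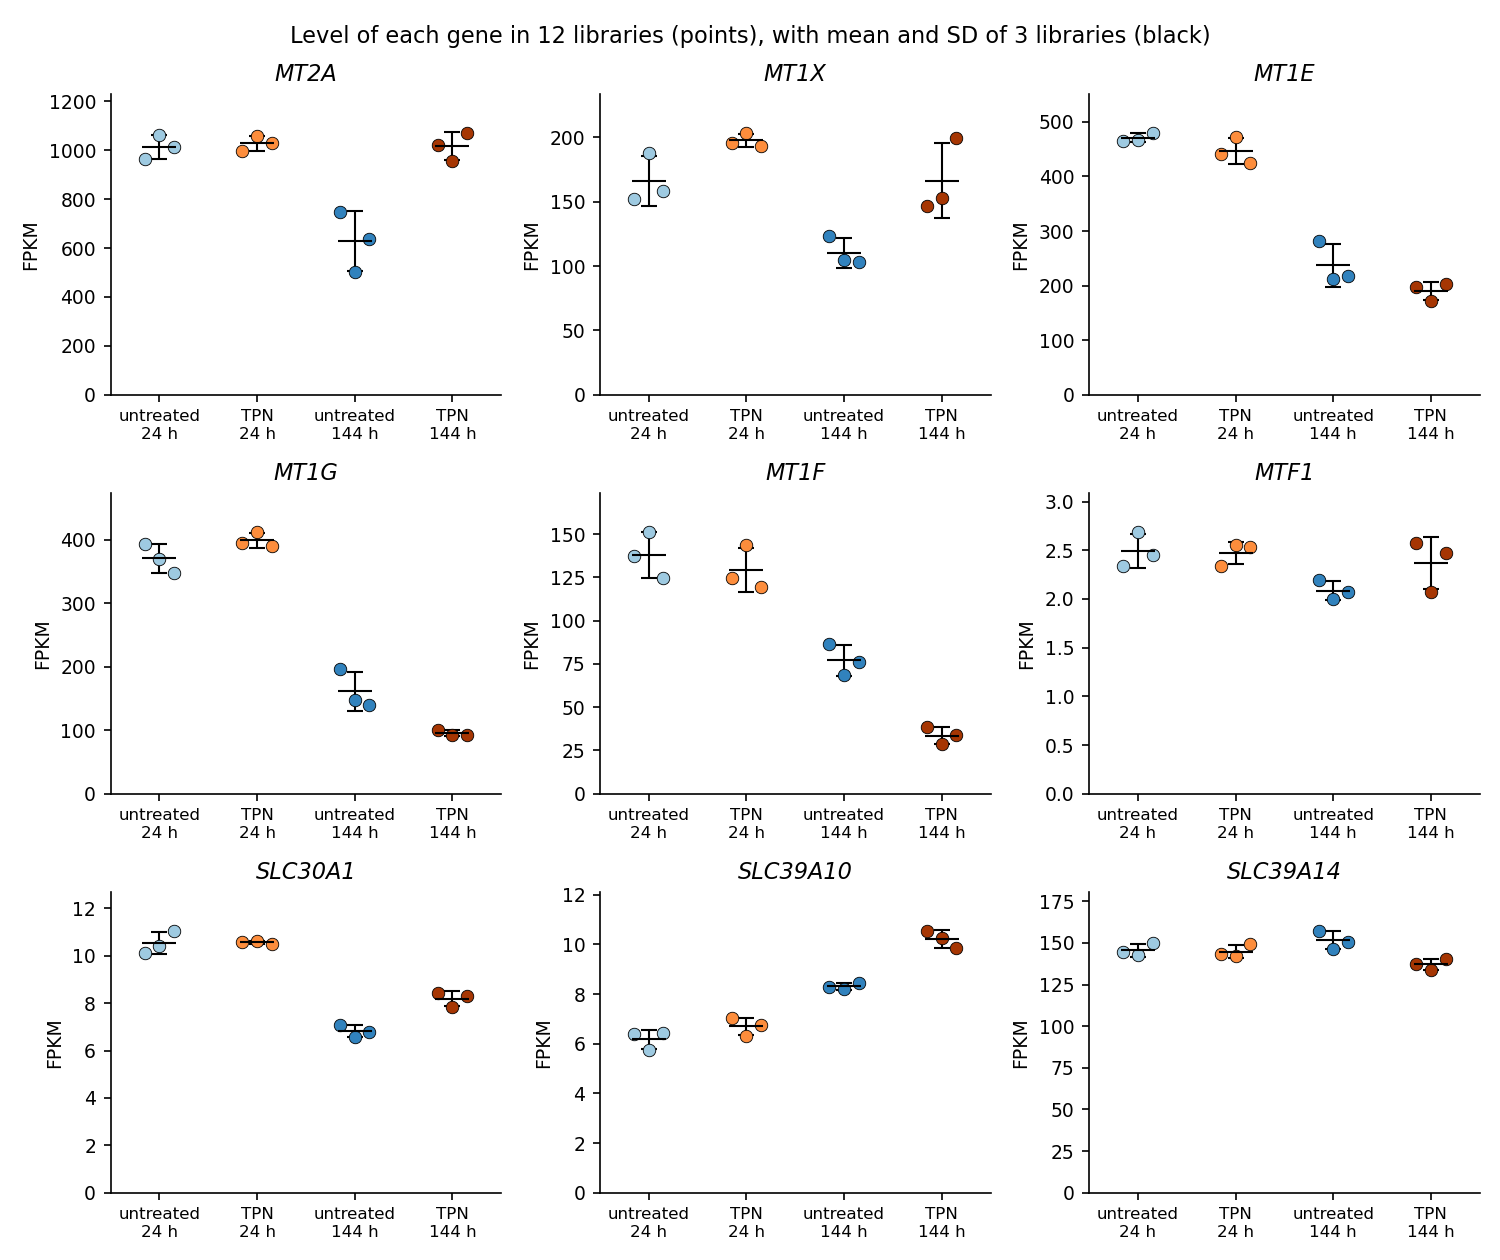
FPKM of each of the 9 genes in the 12 libraries, with 1 panel per gene and its own axis starting at 0. Points are single libraries, the long black lines are the mean of 3 libraries and the error bars the SD. At 144 h, MT2A and MT1X were higher and MT1E, MT1F and MT1G were lower in all 3 exposed libraries than in all 3 untreated ones.

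After 24 h, none of the 9 members was called, against a background of 10.5% of all genes tested. MT2A stood at 966, 1064 and 1012 FPKM in the untreated libraries and at 998, 1060 and 1029 FPKM in the exposed ones, so that the exposed libraries lay within the range of the untreated ones (log2 fold change 0.02, 95% interval -0.19 to 0.24, adjusted p = 0.93, limma). MT1X was the only member whose groups did not overlap, compared with 29.9% of all genes. Its untreated libraries held 152, 188 and 158 FPKM and its exposed libraries 196, 204 and 194 FPKM. The difference of 0.26 ± 0.11 (log2 fold change ± SE) had an unadjusted p of 0.0296 in limma, the only one below 0.05 among the members, and an adjusted p of 0.15. When only the 6 libraries of 24 h were fitted, its adjusted p was 0.0447, which made it the 1 member called. MT1E stood at 465, 467 and 480 FPKM in untreated and at 441, 473 and 425 FPKM in exposed spheroids, and MT1F at 138, 151 and 124 FPKM and 125, 144 and 120 FPKM. In both genes the groups overlapped. MTF1 lay between 2.34 and 2.69 FPKM in untreated and between 2.34 and 2.55 FPKM in exposed libraries. SLC39A10 lay between 5.73 and 6.43 FPKM and between 6.33 and 7.02 FPKM, and SLC39A14 between 142 and 150 FPKM and between 142 and 149 FPKM, and these groups overlapped too. The members other than MT1X had log2 fold changes between -0.09 (MT1F) and 0.11 (SLC39A10), and the median over the members was 0.006, compared with -0.0045 over all genes.

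After 144 h, the metallothioneins had moved in opposite directions. MT2A and MT1X were higher and MT1F, MT1G and MT1E were lower in spheroids exposed to TPN than in untreated spheroids of the same age, with the largest difference in MT1F, which was 2.29-fold lower. In all, 8 of the 9 members were called at an adjusted p below 0.05, 4 higher and 4 lower, while 52.5% of all genes were called (24.2% higher and 28.3% lower). Of the members, 4 were DEGs, compared with 9.48% of all genes. These were MT2A and MT1X with higher expression, against 5.75% of all genes, and MT1F and MT1G with lower expression, against 3.73%. The groups did not overlap in 8 of the 9 members, compared with 57.3% of all genes. Since a large share of all genes was called here, a call alone says little about these genes. The members were also chosen with earlier results of these data known, so their counts are not those of genes chosen blind.

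MT2A encodes the main metallothionein of many human cells. Its untreated libraries of 144 h held 747, 503 and 638 FPKM and its exposed libraries 1021, 957 and 1072 FPKM. All exposed libraries thus lay above all untreated ones, which were widely spread, and the log2 fold change was 0.71 ± 0.10 (adjusted p = 4.86e-05, limma). Leaving out each library in turn gave values between 0.56 and 0.84, all called, and the lowest of them, without untreated replicate 2, fell short of the fold-change threshold for a DEG.

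MT1X, which encodes another inducible metallothionein, held 124, 105 and 103 FPKM in the untreated libraries and 147, 153 and 200 FPKM in the exposed libraries of 144 h. All exposed libraries were above all untreated ones, and the third exposed library stood apart from the other two. The log2 fold change of 0.584 ± 0.11 (adjusted p = 0.000407, limma) was barely above the threshold of 0.58. It stayed called in every alternative, but was 0.57 with libraries scaled to the same FPKM total, 0.55 and 0.54 without untreated replicate 2 or 3, and 0.45 without the third exposed library, none of which reached the threshold for a DEG.

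MT1F, one of the less abundant metallothioneins, showed the largest change of the 9 genes. Its untreated libraries held 86.5, 68.7 and 75.8 FPKM after 144 h, and its exposed libraries held 38.4, 28.6 and 33.8 FPKM. The exposed spheroids had less than the lowest untreated library in every case (log2 fold change -1.20 ± 0.11, adjusted p = 7.48e-07, limma). Each exposed library held about 97 fragments of this gene on average.

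MT1G, a metallothionein isoform that is prominent in liver, fell from 196, 147 and 141 FPKM in untreated spheroids to 101, 92.5 and 92.1 FPKM in exposed spheroids of 144 h. The groups did not overlap, and the exposed libraries were much closer to each other than the untreated ones. The log2 fold change was -0.75 ± 0.09 (adjusted p = 1.57e-05, limma).

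MT1E held 282, 212 and 217 FPKM in untreated and 197, 171 and 203 FPKM in exposed spheroids of 144 h. The groups were separated by a narrow gap, and the first untreated library was well above the other two. The log2 fold change was -0.31 ± 0.09 (adjusted p = 0.0104, limma), and it was -0.18 (adjusted p = 0.0317) without the first untreated library. The call was lost without the second exposed library, when the log2 fold change was -0.23 with an adjusted p of 0.0544. The first untreated library of 144 h was the highest of its group for all 5 metallothioneins.

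**Figure D2:**
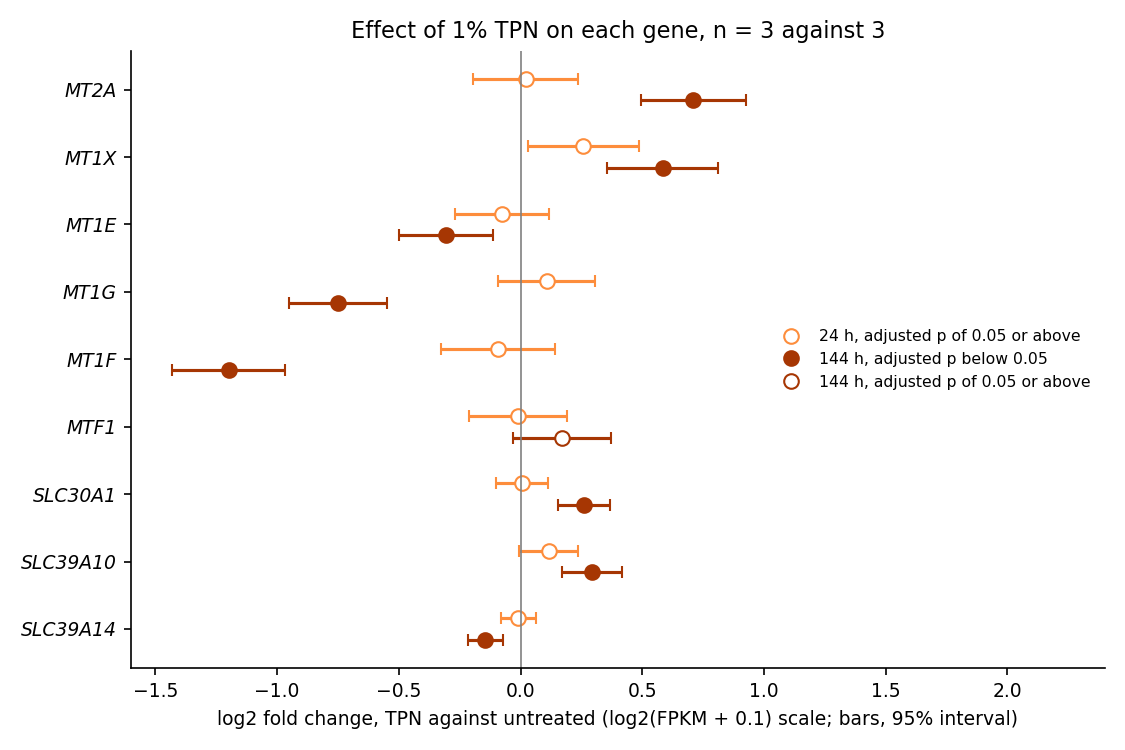
The log2 fold change of each gene in spheroids exposed to 1% TPN against untreated spheroids, after 24 h (light) and 144 h (dark), with 95% intervals from limma and 3 libraries against 3. Filled circles have an adjusted p below 0.05, which none of the genes reached at 24 h and all but MTF1 reached at 144 h.

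MTF1, the factor that senses zinc, was the single member not called after 144 h. It stood at 2.19, 2.0 and 2.07 FPKM in untreated and at 2.57, 2.07 and 2.47 FPKM in exposed spheroids, where the second exposed library lay among the untreated ones. Its log2 fold change was 0.17, with a 95% interval from -0.03 to 0.37 and an adjusted p of 0.14 (limma). Without the second exposed library it was 0.26 with an adjusted p of 0.0316, and without the first it was 0.11 with an adjusted p of 0.389.

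SLC30A1 encodes ZnT1, which exports zinc across the plasma membrane. After 144 h it was higher in exposed spheroids, with 8.44, 7.83 and 8.28 FPKM, than in untreated spheroids, with 7.08, 6.57 and 6.78 FPKM. No exposed library reached down to an untreated one, and the log2 fold change was 0.26 ± 0.05 (adjusted p = 0.000534, limma). After 24 h the values were 10.1, 10.4 and 11.1 FPKM in untreated and 10.6, 10.6 and 10.5 FPKM in exposed spheroids, which overlapped (log2 fold change 0.01, 95% interval -0.10 to 0.11).

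The importers changed in opposite directions. SLC39A10 (ZIP10), a plasma membrane importer, held 8.29, 8.19 and 8.46 FPKM in untreated and 10.6, 10.3 and 9.85 FPKM in exposed spheroids of 144 h. All exposed libraries were higher, by a log2 fold change of 0.29 ± 0.06 (adjusted p = 0.000671, limma). SLC39A14 (ZIP14; gene number 23516, chr8:22367278-22434129) held 157, 147 and 151 FPKM in untreated and 137, 134 and 141 FPKM in exposed spheroids of 144 h. All exposed libraries were lower, by a small difference (log2 fold change -0.14 ± 0.03, adjusted p = 0.00256, limma), which was -0.09 (adjusted p = 0.0494) after quantile normalization. Neither SLC30A1 nor an importer passed the fold-change threshold for a DEG.

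The effect of TPN at 144 h was compared with that at 24 h as an interaction in the same model. Of the 9 members, 5 differed between the time points, compared with 30.4% of all genes. The difference of the log2 fold changes (144 h minus 24 h) was -1.11 ± 0.15 for MT1F (adjusted p = 0.000139), -0.86 ± 0.13 for MT1G (adjusted p = 0.00032), 0.69 ± 0.14 for MT2A (adjusted p = 0.00251) and 0.26 ± 0.07 for SLC30A1 (adjusted p = 0.0138, limma). For SLC39A14 it was -0.14 ± 0.05 with an adjusted p of 0.0444, a call that was lost in 11 of 21 alternatives. It was not shown for MT1E (-0.23, adjusted p = 0.19), MT1X (0.33, adjusted p = 0.118), SLC39A10 (0.18, adjusted p = 0.109) or MTF1 (0.18, adjusted p = 0.327), although SLC39A10 was called without untreated 24 h replicate 2 (0.23, adjusted p = 0.0415). When single libraries were left out, the difference lay between -0.30 and -0.10 for MT1E and between 0.19 and 0.41 for MT1X, and neither gene was called. For MT1X in particular, which was called at 144 h and not at 24 h, a difference between the time points was not shown.

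Untreated spheroids also changed with time in culture. From 24 h to 144 h, 8 of the 9 members were called, 7 lower and 1 higher, compared with 72.6% of all genes (52.4% lower and 20.1% higher). Of these, 6 members were DEGs, all lower, compared with 12.2% of all genes. MT1G fell most, from 394, 370 and 349 FPKM to the values given above for 144 h, which was 2.32-fold (log2 fold change -1.21 ± 0.09, adjusted p = 5.74e-08, limma). The log2 fold changes of the other DEGs were -1.002 for MT1E, -0.84 for MT1F, -0.71 for MT2A, -0.62 for SLC30A1 and -0.59 for MT1X. The median over all genes was itself -0.18 in this comparison, and it was -0.01 after median ratio scaling. Under that scaling these 6 genes were still called lower, but only MT1G, MT1E and MT1F were still DEGs, with MT2A at -0.53, SLC30A1 at -0.44 and MT1X at -0.41. MTF1 fell by 0.24 (adjusted p = 0.0295), a call lost under that scaling (-0.07, adjusted p = 0.496), after quantile normalization (-0.15, adjusted p = 0.171) and without untreated replicate 2 or 3 of 24 h or of 144 h. SLC39A10 was the single member that rose, by 0.42 ± 0.06 (adjusted p = 1.35e-05). SLC39A14 had a log2 fold change of 0.06 (adjusted p = 0.143), and it was called higher after median ratio scaling (0.23, adjusted p = 2.23e-05) and after quantile normalization (0.17, adjusted p = 0.000502).

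In exposed spheroids the time course of the metallothioneins was unequal. MT1G stood at 395, 413 and 390 FPKM after 24 h of TPN, and MT1G and MT1F were 4.2-fold and 3.86-fold lower after 144 h (log2 fold changes -2.07 ± 0.09 and -1.95 ± 0.11, adjusted p = 1.68e-10 and 1.28e-09, limma). MT1E fell by 1.23 on the log2 scale. MT2A, by contrast, was at nearly the level of 24 h after 144 h of exposure (log2 fold change -0.02, 95% interval -0.23 to 0.20), although it was -0.27 (adjusted p = 0.0264) after quantile normalization and 0.16 after median ratio scaling. MT1X fell by 0.26 (adjusted p = 0.0377), a call lost when any of 5 of the 6 libraries was left out. Without the third exposed library of 144 h it was -0.40, and the call was also lost after median ratio scaling (-0.084, adjusted p = 0.488) and quantile normalization (-0.12, adjusted p = 0.285), in all in 10 of 16 alternatives. SLC30A1 fell by 0.37, with values of -0.19 after median ratio scaling and -0.23 after quantile normalization that were still called, and SLC39A10 rose by 0.60 by 144 h. SLC39A14 fell by 0.08 (adjusted p = 0.0451), a call lost in 6 of 16 alternatives, and the direction turned after median ratio scaling (0.097, adjusted p = 0.0147) and quantile normalization (0.11, adjusted p = 0.00969), both of which called it higher. In all, 7 of the 9 members were called, compared with 76.2% of all genes. The comparisons with time share libraries with those between exposed and untreated spheroids, so their values are not independent of each other.

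The summed FPKM of the 5 metallothioneins was 2160 ± 70.5 in untreated and 2202 ± 78.9 in exposed spheroids of 24 h (mean ± SD, n = 3). After 144 h it was 1215 ± 202 in untreated spheroids, with libraries from 1036 to 1435, and 1502 ± 99.1 in exposed spheroids, with libraries from 1402 to 1600. The 144 h ranges overlapped, so that the total differed less clearly between the groups than its composition did.

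The share of MT2A in that sum was 47.0% ± 1.09 in untreated and 46.8% ± 0.827 in exposed spheroids of 24 h. After 144 h it was 51.6% ± 2.90 in untreated spheroids and 67.7% ± 0.645 in exposed spheroids, where no library was below 67.0%. The share of MT1F was 6.37% ± 0.311 in untreated and 2.23% ± 0.276 in exposed spheroids of 144 h, and that of MT1G was 13.3% ± 1.17 and 6.35% ± 0.514. The share of MT1E was 19.5% ± 1.01 and 12.7% ± 0.462, while that of MT1X was 9.16% ± 0.816 and 11.1% ± 1.37 with overlapping libraries. At 144 h the shares of MT2A, MT1F, MT1G and MT1E lay outside the range of the untreated libraries in all 3 exposed libraries. At 24 h the ranges did not overlap for MT1X, with shares of 7.18% to 8.39% in untreated and 8.88% to 9.09% in exposed libraries, and for MT1E, with 20.9% to 22.6% and 19.7% to 20.6%. The ratio of MT2A to MT1G within a library, which does not depend on how libraries are scaled to each other, lay between 2.45 and 2.90 in untreated and between 2.53 and 2.64 in exposed libraries of 24 h. It lay between 3.41 and 4.54 in untreated and between 10.2 and 11.6 in exposed libraries of 144 h. The ratio of MT1X to MT1F was between 1.10 and 1.27 in untreated and between 1.42 and 1.62 in exposed libraries of 24 h, which did not overlap, and between 1.36 and 1.52 in untreated and between 3.82 and 5.91 in exposed libraries of 144 h. Both ratios describe genes that are already described above and are given without a test.

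**Figure D3:**
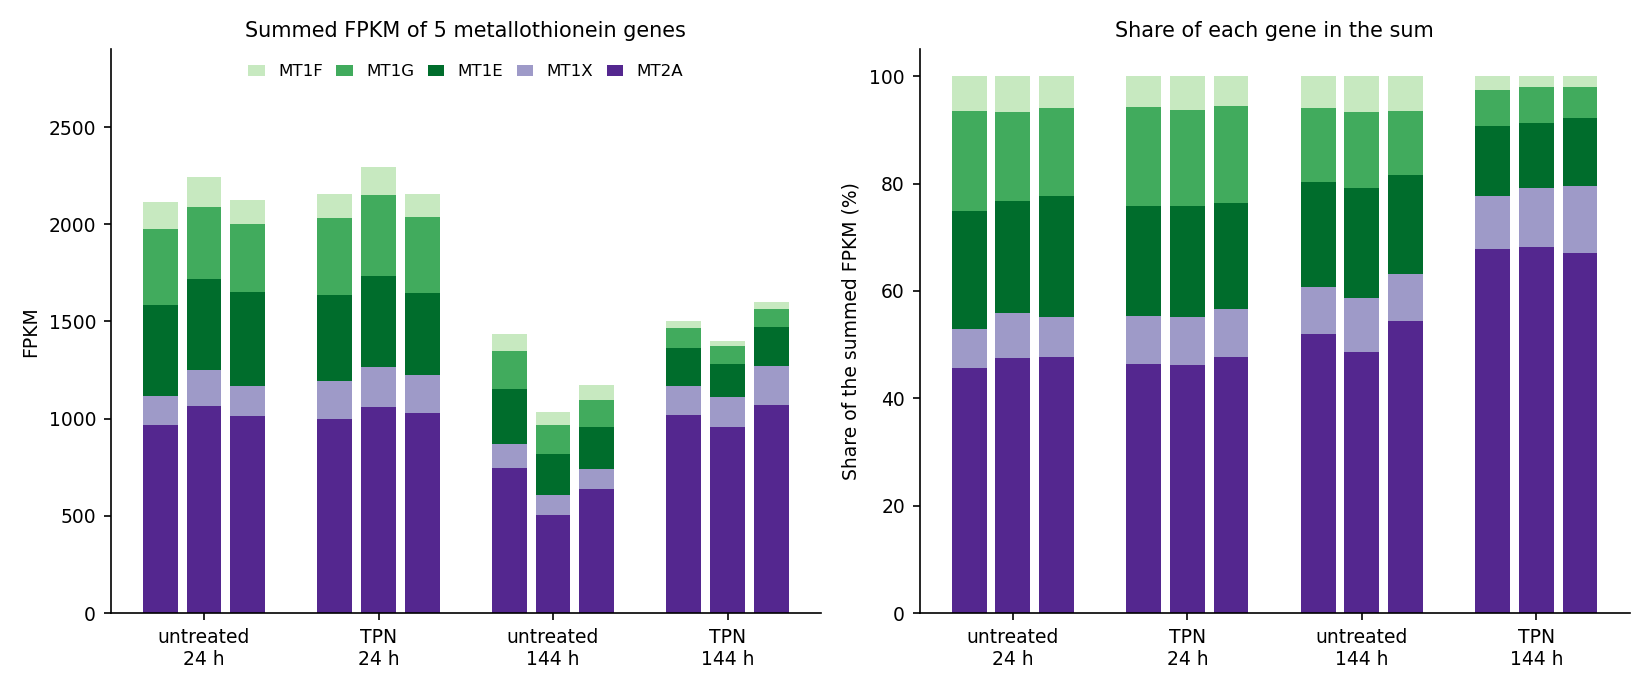
Stacked FPKM of the 5 metallothionein genes in each of the 12 libraries (left) and the share of each gene in that sum in percent (right), with 1 bar per library. MT2A took 67.0% to 68.2% of the sum in the 3 libraries exposed to TPN for 144 h and 48.6% to 54.3% in the untreated libraries of the same time.

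Metallothionein transcripts resemble each other, and the division of fragments between them by the authors' software is uncertain to that extent. In the reference transcripts of GENCODE v44, none of the stretches of 100 bases of MT1E, MT1F, MT1G and MT2A occurred in a transcript of another gene. Of those of MT1X, 22% did, but no other metallothionein gene was among the genes that shared them. Of stretches of 50 bases, 51% were shared for MT1X, 19.9% for MT1G, 11.1% for MT2A, 10.3% for MT1E and 6.12% for MT1F. At this length, other metallothionein genes were among those sharing them for each of these genes. How far shared sequence affected the differences was not tested.

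Some markers of the spheroids' other cell type were also lower at 144 h, as MT1E, MT1F and MT1G were. Of 10 stellate cell markers tested, 6 were lower and none higher in exposed spheroids after 144 h, compared with 28.3% of all genes lower, and 5 of them were DEGs, compared with 3.73% of all genes as lower DEGs. These were COL1A1 (1.92 ± 0.401 FPKM in untreated and 0.747 ± 0.155 in exposed spheroids), VIM (2.44 ± 0.762 and 1.08 ± 0.142), COL1A2, COL3A1 and COL5A1. ACTA2 and SPARC, the most abundant markers of the list, were not called. After 24 h, when 10.5% of all genes were called, 1 of the 10 was lower, ACTA2 (-0.29, adjusted p = 0.000423, limma), and none was higher. From 24 h to 144 h in untreated spheroids, 9 of the 10 were lower and none higher, compared with 52.4% of all genes lower. The summed FPKM of the 11 markers listed was 140.1 to 147.9 in untreated and 124.9 to 127.9 in exposed spheroids of 24 h, and 76.18 to 80.96 in untreated and 70.67 to 73.13 in exposed spheroids of 144 h, and DES, a defining marker, was close to 0 throughout (mean 0.0442 FPKM). ACTA2 and SPARC made up most of the sums at 144 h, which therefore say little about the collagens and VIM. Of 11 hepatocyte markers, 8 were lower and none higher after 144 h of TPN, again compared with 28.3% of all genes lower, with ALB and TF as DEGs, and the summed FPKM of the 11 was between 20170 and 21430 in untreated and between 16770 and 17990 in exposed spheroids. ALB alone had means of 6044 FPKM in untreated and 3863 FPKM in exposed spheroids of 144 h, so the sum mainly follows the most abundant markers. After 24 h, when no member was called, 6 of the 11 were already lower and none higher, compared with 10.5% of all genes called in either direction, and the sums were 16530 to 16980 and 15510 to 15670. AHSG and SERPINA1, the most abundant of these markers after ALB, were not called after 144 h (log2 fold changes -0.042 and -0.035), and the difference between the time points passed the DEG threshold for FGB, a fibrinogen gene that was lower after 24 h and not called after 144 h (0.63, adjusted p = 3.38e-06). The part of either cell type in the change of the metallothioneins was not tested, and in RNA of whole spheroids fewer cells of a type and less RNA per cell cannot be told apart. The endothelial markers PECAM1, VWF and CDH5 and the leukocyte marker PTPRC were below the filter. CD68, known as a macrophage marker, had a mean of 52.7 FPKM and was called higher at 24 h (0.17, adjusted p = 0.00373, limma) and at 144 h (0.41, adjusted p = 1.84e-07). KRT19, a marker of bile duct cells, was called lower at 24 h (-0.25, adjusted p = 0.000702) and at 144 h (-0.52, adjusted p = 8.28e-08), and SOX9 was not called at either time. CD68 and KRT19 thus changed along with the metallothioneins at 144 h, and their part in the result was not tested.

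Of 6 further ZnT exporters tested, 2 were higher and 1 lower in exposed spheroids at each time point, when 10.5% of all genes were called at 24 h and 52.5% at 144 h. SLC30A3, which loads zinc into vesicles, was at 2.62 ± 0.270 FPKM in untreated and 3.82 ± 0.238 in exposed spheroids of 24 h (log2 fold change 0.53, adjusted p = 0.00265, limma). After 144 h it was at 2.2 ± 0.175 and 3.79 ± 0.334 FPKM (0.76, adjusted p = 1.76e-05), the only DEG among these exporters. SLC30A7, which transports zinc into the Golgi apparatus, was higher by 0.31 (adjusted p = 0.0496) and 0.42 (adjusted p = 0.00175). SLC30A10, which exports manganese, had log2 fold changes of -0.26 (adjusted p = 0.0393) and -0.55 (adjusted p = 3.66e-05). Of the 3 calls at 24 h, 2 had adjusted p values close to 0.05, and the number called was 1 to 3 over 16 alternatives. The most abundant of these exporters, SLC30A5, SLC30A9 and SLC30A6, were not called at either time point.

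Of 9 further ZIP importers tested, none was called by limma after 24 h (0 also at an unadjusted p below 0.05), when 10.5% of all genes were called. After 144 h, 3 were higher and 2 lower, and none was a DEG. With 52.5% of all genes called, 5 of 9 is close to the background, and the count was 3 or 4 when any 1 of the 6 libraries of 144 h was left out. It was 3 without untreated replicate 1 or 2 or exposed replicate 2 or 3. SLC39A5, an importer of the basolateral membrane, fell from 95.7 ± 0.872 to 65.1 ± 2.65 FPKM after 144 h (log2 fold change -0.56 ± 0.04, adjusted p = 6.53e-08, limma), and the difference from its effect at 24 h was -0.50 (adjusted p = 2.62e-05). SLC39A6, the closest relative of SLC39A10, rose from 17.9 ± 0.231 to 22.3 ± 0.811 FPKM (0.32, adjusted p = 7.51e-06). The most abundant importer of this list, SLC39A7, which releases zinc from the endoplasmic reticulum, rose by 0.07 (adjusted p = 0.0338), while SLC39A1, next in abundance after SLC39A5, was not called (0.05, adjusted p = 0.245). Of the other called importers, named here after their values were seen, SLC39A13 rose by 0.20 (adjusted p = 0.029) and SLC39A4 fell by 0.19 (adjusted p = 0.0109).

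**Figure D4:**
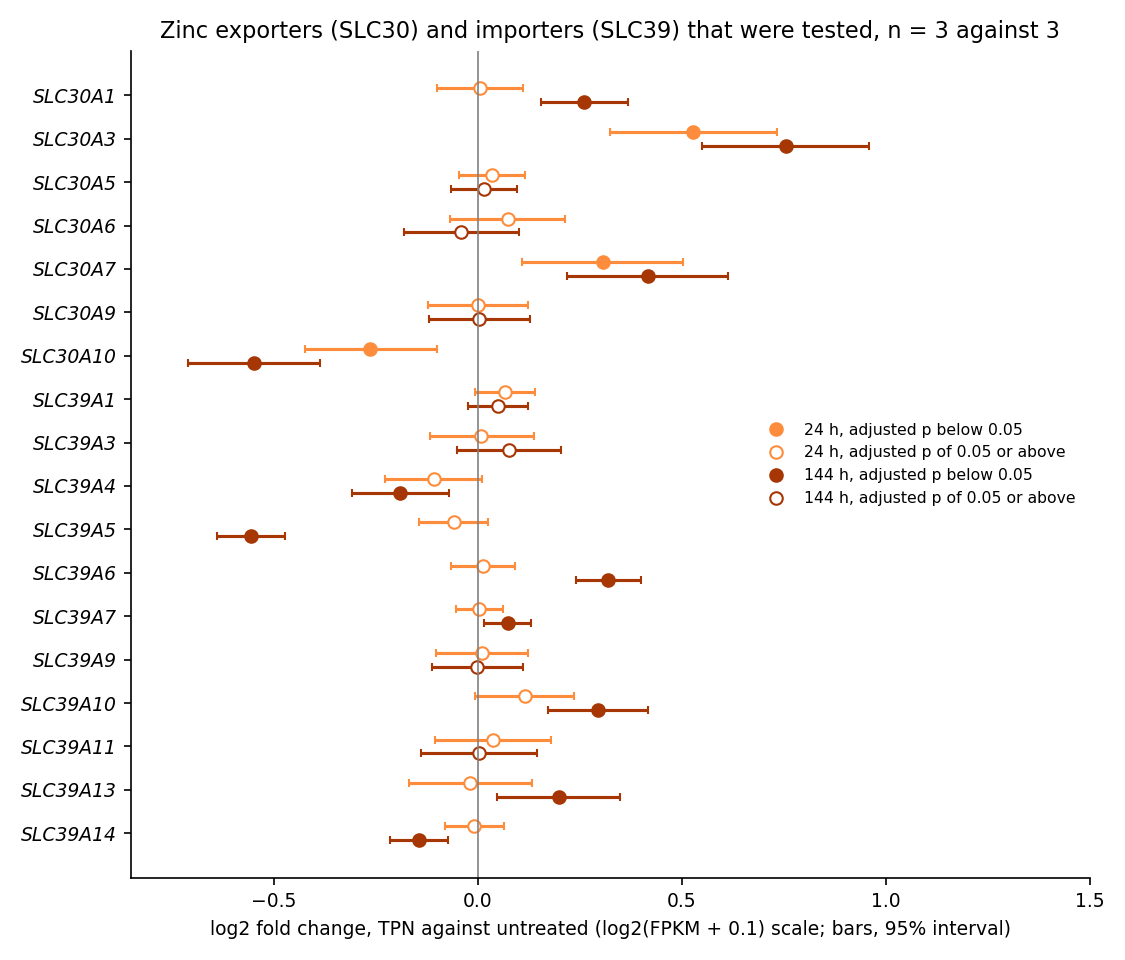
The log2 fold change of every zinc exporter (SLC30) and importer (SLC39) tested, in spheroids exposed to 1% TPN against untreated spheroids after 24 h (light) and 144 h (dark), with 95% intervals from limma and 3 libraries against 3. Filled circles have an adjusted p below 0.05. SLC30A3 had the largest increase, with a log2 fold change of 0.76 at 144 h, and SLC39A5 and SLC30A10 the largest decreases, at -0.56 and -0.55.

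Of 8 further metallothioneins listed, 3 were in the table and only MT1A passed the filter. It stood at 0.53 ± 0.599 FPKM in untreated and 1.503 ± 0.238 FPKM in exposed spheroids of 144 h and was not called (log2 fold change 1.98 ± 0.93, adjusted p = 0.0881, limma). It was called in 3 of 16 alternatives, which were a pseudocount of 1, a fit of only the 144 h groups and leaving out untreated replicate 3. Metallothioneins also bind copper, and of 11 genes of copper handling none was called by limma after 24 h, when 10.5% of all genes were called. At that time 1 had an unadjusted p below 0.05, and 1 was called when only the 24 h groups were fitted or with the replicate block. After 144 h, when 52.5% of all genes were called, 5 were higher and 3 lower, with no DEG. CP, which encodes the copper-carrying plasma protein ceruloplasmin, was the most abundant of them and rose from 198 ± 8.30 to 254 ± 8.56 FPKM (log2 fold change 0.36, adjusted p = 2.87e-06). ATOX1 and COX17, which encode copper chaperones and were next in abundance, were not called (-0.10 and 0.14). Of the copper exporters, singled out after their values were seen, ATP7A rose by 0.43 (adjusted p = 0.00236) and ATP7B, the form known from liver, fell by 0.30 (adjusted p = 2.95e-05).

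Metallothioneins also respond to heat shock and glucocorticoids, and the counts of both lists stand against 10.5% of all genes called at 24 h and 52.5% at 144 h. Of 11 heat shock genes tested, 3 were higher and 1 lower after 24 h and 2 were higher and 4 lower after 144 h, with DNAJB1 as the only DEG at these times (log2 fold change -0.62, adjusted p = 4.66e-09, limma). HSPD1 and HSPE1, the mitochondrial chaperonin genes and the most abundant of the list, were not called at either time, and HSPA8 rose by 0.12 after 144 h (adjusted p = 0.00284). The stress-inducible HSPA1A and HSPA1B were higher after 24 h (0.22 and 0.30) and lower after 144 h (-0.37 and -0.42), with differences between the time points of -0.58 (adjusted p = 3.8e-05) and -0.72 (adjusted p = 8.59e-06) that passed the DEG threshold. Both genes are near-identical in sequence, so that the split of reads between them is uncertain. The count of 4 after 24 h was 2 without untreated replicate 1 and 3 without any other single library. Of 10 glucocorticoid targets listed, 6 were tested and the others were below the filter. Of these 6, 2 were higher and 1 lower after 24 h and 3 were higher and 2 lower after 144 h, with none a DEG. The most abundant of these targets were ERRFI1, which rose by 0.23 after 144 h (adjusted p = 2.36e-05), DUSP1, with a log2 fold change of -0.02 (adjusted p = 0.807), and FKBP5, a sensitive target of the glucocorticoid receptor, which rose by 0.16 (adjusted p = 0.00113). Those called lower after 144 h, named here after their values were seen, were SGK1 (-0.556, adjusted p = 5.36e-05) and PER1 (-0.535, adjusted p = 0.000443, limma). SGK1 was also the target called lower after 24 h (-0.524, adjusted p = 0.000769). TAT, also named after its values were seen, was called higher after 24 h (0.478, adjusted p = 0.000429, limma) and after 144 h (0.203, adjusted p = 0.0213).

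Genes with a pattern like that of the members were sought among 8275 genes over the 12 libraries, by the root mean square difference of centred log2 values. Closest to the mean profile of the 5 metallothioneins were SETMAR (0.0906), SLC25A10 (0.0917), BRMS1 (0.0931), TOR3A (0.101) and ATP6V0E2 (0.107). Of the metallothioneins themselves, MT1E was as close (0.0962), whereas MT1G, MT1X, MT1F and MT2A were at 0.389 to 0.451. The mean profile therefore described MT1E and none of the other 4 well. Closest to SLC30A1 were M6PR (0.0441), PPP1R10 (0.0487) and NFS1 (0.0523), and M6PR stood at 52.2, 53.4, 33.7 and 43.0 FPKM in the order untreated 24 h, exposed 24 h, untreated 144 h and exposed 144 h.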

How the data were processed

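RNA of 12 libraries of C3A and LX-2 spheroid co-cultures was sequenced on a DNBSEQ platform from strand-specific libraries. The authors filtered the reads with SOAPnuke, mapped them to GRCh38.p13 with HISAT2 2.0.4 and to reference transcripts with Bowtie2 2.2.5 (versions and build per the submitters' processing notes), and calculated with RSEM the deposited FPKM values, rounded to 2 decimals. Read length and strand setting are not given in the sources used here. No further scaling was applied. The table held 16705 genes, and 20 lines of run-on annotation text were left out.

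Genes with a mean of at least 0.5 FPKM (11713) entered limma 3.58.1 (R 4.3.3) as log2(FPKM + 0.1) (lmFit on 4 groups, eBayes with an intensity trend, Benjamini-Hochberg adjustment over all genes tested). The count-based test of the study was not repeated, since read counts were not used here. The labels number the 3 libraries of a group without naming separate cultures, and the study describes its transcriptomic data as coming from independent experiments. On simulated data of this design, 193 of 200 changed genes were recovered with 13 false calls among 11713 genes. In the measured data 52.5% of all genes were called at 144 h, and recovery with so many genes changed was not tested. Recovery at the log2 fold changes of the single members was not tested either. The members and the gene lists were chosen with earlier results of these data known. All 9 members are named. From the other lists, up to 3 genes with the highest mean FPKM are named. Also named are DEGs between exposed and untreated spheroids and DEGs of the difference between the time points, but not DEGs of the comparisons with time alone. PECAM1, VWF, CDH5, PTPRC, DES, SLC30A7, SLC30A10, SLC39A4, SLC39A6, SLC39A13, ATP7A, ATP7B, SGK1, PER1 and TAT were added after their values were seen. Genes of like pattern had a mean of at least 5 FPKM. Promoter windows came from RefSeq (GRCh38.p14) and transcripts, for depth and shared sequence, from GENCODE v44, which need not match the authors' reference. Alternatives changed the pseudocount, the filter, the scaling, the libraries in the model, the trend and the replicate block, and left out each library in turn. Tables and figures were made in Python 3.11.15 (numpy 2.4.6, pandas 2.3.3, matplotlib 3.10.9).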

Additional observations from a re-analysis of the deposited data

Results flagged for a closer look

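For 5 of the 9 genes the effect of TPN differed between the time points in the interaction test of the limma model, compared with 30.4% of all genes. The difference of the log2 fold changes, 144 h minus 24 h, was -1.106 for MT1F (adjusted p = 0.000139) and -0.856 for MT1G (adjusted p = 0.00032), which were lower in exposed spheroids at 144 h and were not called at 24 h. It was 0.688 for MT2A (adjusted p = 0.00251) and 0.255 for SLC30A1 (adjusted p = 0.0138), which were higher in exposed spheroids at 144 h. For SLC39A14 it was -0.136 (adjusted p = 0.0444), and over the alternatives its adjusted p ranged from 0.0238 to 0.354. For MT1F, MT1G, MT2A and SLC30A1 the call held in all 21 alternatives, with adjusted p values of at most 0.00125, 0.00236, 0.0106 and 0.0365. With 3 libraries in a group, no formal test for outlying libraries was made.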

How the results depend on the processing

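Over all alternatives, the log2 fold changes of the members were recomputed 760 times, of which 703 kept their direction and their side of the threshold, 34 lost their call, 6 gained one and 17 changed sign. The number of members called after 144 h of TPN was 8 in all 16 alternatives, but without exposed replicate 2 the call of MT1E was lost (adjusted p = 0.0544) and that of MTF1 gained (adjusted p = 0.0316). After 24 h it was 0, except that it was 1 when only the groups of the comparison were fitted, with MT1X as the gene called. The members that changed sign were close to 0 or depended on the scaling. At 24 h the log2 fold change of SLC30A1 was -0.0030 with libraries scaled to the same FPKM total and -0.0025 after quantile normalization, under which that of MTF1 was 0.00016. When single libraries were left out at 24 h, the ranges were -0.013 to 0.057 for MT2A, -0.021 to 0.042 for SLC30A1, -0.053 to 0.044 for MTF1 and -0.030 to 0.013 for SLC39A14. In exposed spheroids, 144 h against 24 h, median ratio scaling gave 0.16 for MT2A, 0.11 for MTF1 and 0.097 for SLC39A14, and quantile normalization gave 0.11 for SLC39A14. Leaving out single libraries there gave -0.058 to 0.024 for MT2A and -0.12 to 0.027 for MTF1. The cause was not tested. With a filter of at least 5 FPKM, MTF1 was not among the genes tested, and a fit of only the groups compared gives no value for the difference between the time points. The labels give replicates of different groups only a number in common. Of 18 combinations of libraries with the same number, 5 had deviations from the group means correlated above 0.1, with a median of 0.046, against 2 of 36 combinations with different numbers, with a median of -0.016. With the replicate block, the genes called numbered 1226 in place of 1230 at 24 h and 6130 in place of 6144 at 144 h, and of the members the call of MT1X in exposed spheroids, 144 h against 24 h, was lost (adjusted p = 0.0533). The fewest fragments per library, about 97 on average, lay behind MT1F after 144 h of TPN.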
